A study of Mus musculus with 16 samples.

Results

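Expression of 9 genes for matrix proteases and their inhibitors was examined in mouse quadriceps. They are the metalloproteinases *Mmp2*, *Mmp3*, *Mmp9* and *Mmp14*, the plasminogen activator *Plau*, and the tissue inhibitors *Timp1*, *Timp2*, *Timp3* and *Timp4*. The genes were taken by symbol from a count table of 41388 genes, and all 9 passed the filter on low counts in all 5 pairwise comparisons and in the interaction test. RNA sequencing was done on quadriceps of C57BL/6 mice (C57BL6J in the study's methods) at postnatal day 36 per the labels, which a supplement of the study puts 1 day earlier, in 4 groups of 4 libraries. The groups were wild type (WT), WT given tamoxifen (WT + TAM), *Mtm1* knockout (*Mtm1* KO, given as mtm1 -/- in the labels) and *Mtm1* KO given tamoxifen (*Mtm1* KO + TAM). *Mtm1* encodes myotubularin, a phosphoinositide phosphatase lost in X-linked myotubular myopathy, and the knockout carries a targeted deletion within the gene. Tamoxifen, which binds estrogen receptors, was mixed into the chow at 40 mg/kg from day 21. The total count per library was between 25116179 and 29847222. The study counts each mouse once in its group sizes, but the labels do not tie a library to its own mouse, and the p-values measure only the spread between these libraries.

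Metalloproteinases are zinc-dependent enzymes that cut collagens, laminins and other proteins around cells, and most are made as inactive precursors. TIMP proteins bind the active enzymes and block them, while urokinase, the product of *Plau*, turns plasminogen into plasmin, which cuts fibrin and activates some of the precursors. In skeletal muscle these genes are known mainly from regeneration and fibrosis, where the matrix around the fibres is taken apart and rebuilt by fibroblasts, immune cells and muscle stem cells.

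The targeted gene was examined first. *Mtm1* had 369, 341 and 350 counts in WT replicates 2, 3 and 4, and 282 to 459 counts in WT + TAM. The *Mtm1* KO replicates 9, 10 and 11 had 76, 63 and 76 counts, *Mtm1* KO replicate 12 had 85, and *Mtm1* KO + TAM had 53 to 97. The library labelled WT replicate 1 had 74 counts, a number within the range of the knockout libraries and below those of all 7 other WT and WT + TAM libraries, so its *Mtm1* level goes against its label. The counts cover the whole gene, including exons that the deletion leaves in place. The study used 14 libraries, with 3 in WT and 3 in *Mtm1* KO, and its text does not say which 2 were dropped or why. Here the library labelled WT replicate 1 and *Mtm1* KO replicate 12 were taken to be these 2, from earlier results of these data. The results below rest on the other 14 libraries, and calls of the genes named that were lost with all 16 are given below. Among all 120 pairs of libraries, WT + TAM replicates 7 and 8 were the most alike, with a median squared difference of 1.47 in units of counting noise, where 0.455 is expected from counting alone and the next closest pair of libraries within a group had 3.40. They differed by more than sampling noise and were kept as 2 libraries. *Mtm1* KO replicate 10 stood apart in neutrophil genes, as described with *Mmp9*.

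Levels were compared between genes as RPKM, which divides counts by gene length and library total. In WT the highest of the 9 mean RPKM levels was that of *Timp2*, at 54.3 ± 2.06 (SD, n = 3), followed by *Mmp2* at 38.4 ± 5.45. *Mmp14* (19.3 ± 2.501), *Timp4* (18.3 ± 5.89), *Plau* (17.7 ± 1.47) and *Timp3* (15.05 ± 1.57) came next, and the RPKM ranges of neighbours in this order overlapped. Below them stood *Timp1* at 2.498 ± 1.06, *Mmp9* at 1.24 ± 0.566 and *Mmp3* at 1.06 ± 0.277 RPKM, where neighbours also overlapped. In *Mtm1* KO the order was *Timp2* (76.5 ± 10.5 RPKM), *Mmp2* (72.7 ± 8.36), *Timp1* (47.3 ± 13.2), *Mmp14* (38.4 ± 15.03), *Timp3* (27.1 ± 1.06), *Plau* (22.0 ± 3.35), *Timp4* (19.1 ± 8.63), *Mmp3* (2.06 ± 0.238) and *Mmp9* (2.003 ± 2.56). *Timp1* thus stood next after *Timp2* and *Mmp2* in the knockout. Neighbours whose ranges overlapped were *Timp2* and *Mmp2*, *Timp1* and *Mmp14*, *Plau* and *Timp4*, and *Mmp3* and *Mmp9*. In WT + TAM (n = 4) the order in RPKM was *Timp2* (46.5 ± 5.75), *Mmp2* (38.3 ± 6.70), *Timp4* (25.1 ± 3.29), *Timp3* (20.5 ± 8.23), *Mmp14* (17.4 ± 7.71), *Plau* (13.8 ± 2.57), *Timp1* (3.92 ± 2.78), *Mmp9* (0.740 ± 0.386) and *Mmp3* (0.545 ± 0.207). In *Mtm1* KO + TAM (n = 4) it was *Mmp2* (62.1 ± 10.1), *Timp2* (58.7 ± 3.39), *Timp1* (44.2 ± 14.5), *Mmp14* (31.2 ± 3.88), *Timp3* (24.8 ± 3.43), *Timp4* (23.6 ± 5.01), *Plau* (21.8 ± 1.61), *Mmp3* (0.811 ± 0.660) and *Mmp9* (0.382 ± 0.273). All neighbours overlapped in these 2 orders except *Plau* with the gene next below it. The gene lengths implied by the RPKM values were 2597 bases for *Mmp14* and 1416 for *Timp4*, against 5960 and 5894 bases of annotated exon, so the place of these genes in the order depends on the length used.

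**Figure D1:**
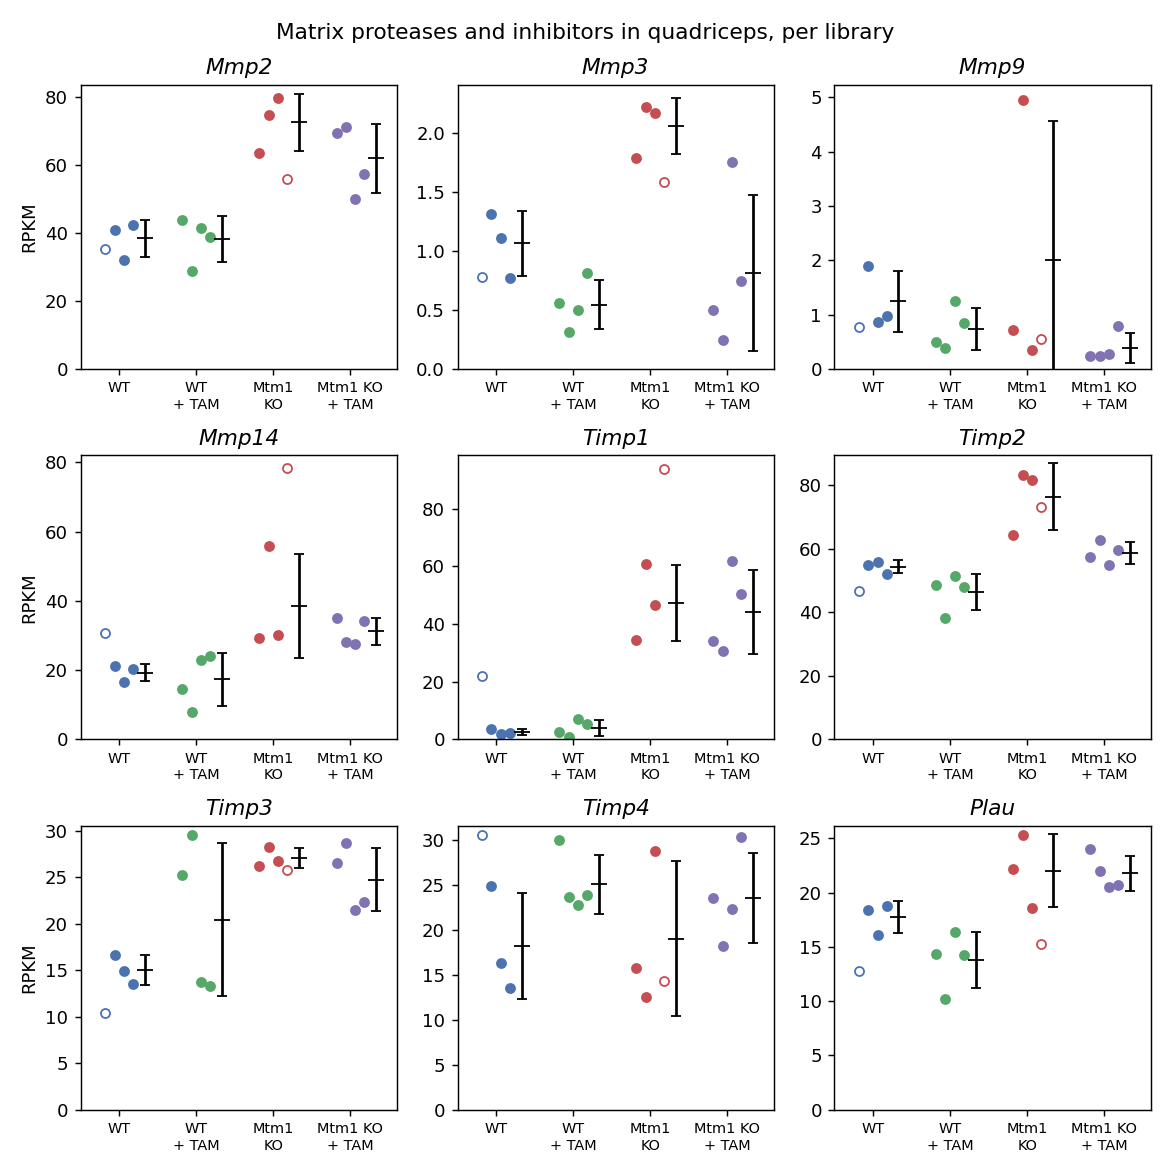
RPKM of each of the 9 genes (vertical axes, starting at 0) in every library of the 4 groups. Filled points are the 14 libraries analysed, open points are the library labelled WT replicate 1 and *Mtm1* KO replicate 12, and black marks show the mean and SD of the filled points; *Timp1* lies between 30.7 and 61.8 in all 7 filled knockout libraries and at or below 6.97 in the other 7.

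*Mtm1* KO was compared with WT to ask what loss of *Mtm1* does to these genes, and the same was asked between the tamoxifen groups. In *Mtm1* KO against WT, 1 of the 9 genes, *Timp1*, passed the threshold of 0.01 on the p adjusted by Benjamini and Hochberg's method in the quasi-likelihood test of edgeR, beside 3.6% of all genes tested (531 of 14740). At an adjusted p of 0.05 there were 3, *Timp1*, *Mmp2* and *Timp3*, beside 12.8% of all genes. The groups did not overlap in CPM (counts scaled to the library total with TMM) for 5 of the 9 genes, beside 36.3% of all genes. Of the 9 log2 fold changes 7 were positive, and their median was 0.54, against 0.02 over all genes tested. In *Mtm1* KO + TAM against WT + TAM, 1 of the 9 genes passed, again *Timp1*, beside 6.72% of all genes, and the groups did not overlap for 1 gene, beside 22.5%. The median log2 fold change of the 9 genes was 0.27 there, against -0.01 over all genes tested. Against untreated WT, the controls of the comparison given first, *Timp1* alone in *Mtm1* KO + TAM passed at 0.01 (1 of 9 beside 7.7% of all genes), and *Timp1* and *Mmp9* passed at 0.05 (2 of 9 beside 20% of all genes). The other log2 fold changes of that comparison were 0.43 (SE 0.16) for *Mmp2*, -0.70 (SE 0.52) for *Mmp3*, 0.43 (SE 0.15) for *Mmp14*, -0.17 (SE 0.12) for *Timp2*, 0.45 (SE 0.15) for *Timp3*, 0.11 (SE 0.22) for *Timp4* and 0.03 (SE 0.12) for *Plau*. *Timp4* was at -0.08 without WT replicate 4 and at -0.05 without *Mtm1* KO + TAM replicate 16, and *Plau* was at -0.05 without *Mtm1* KO + TAM replicate 13. Scaling by library size alone moved the median of all genes to 0.33 in *Mtm1* KO against WT, 0.27 between the tamoxifen groups and 0.28 in *Mtm1* KO + TAM against WT. The fold changes given here are relative to TMM scaling, and ratios of RPKM run higher than them. The count of all genes called was less stable than that of the 9: in *Mtm1* KO against WT it was 182 to 263 without WT replicate 2, 3 or 4 or *Mtm1* KO replicate 10 or 11. In the tamoxifen groups it was 424 to 622, in place of 979, without WT + TAM replicate 7 or 8 or *Mtm1* KO + TAM replicate 13, 14 or 15. Without WT replicate 2, 3 or 4 or *Mtm1* KO + TAM replicate 13, 14 or 15 it was 531 to 731, in place of 1150, in *Mtm1* KO + TAM against WT.

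**Figure D2:**
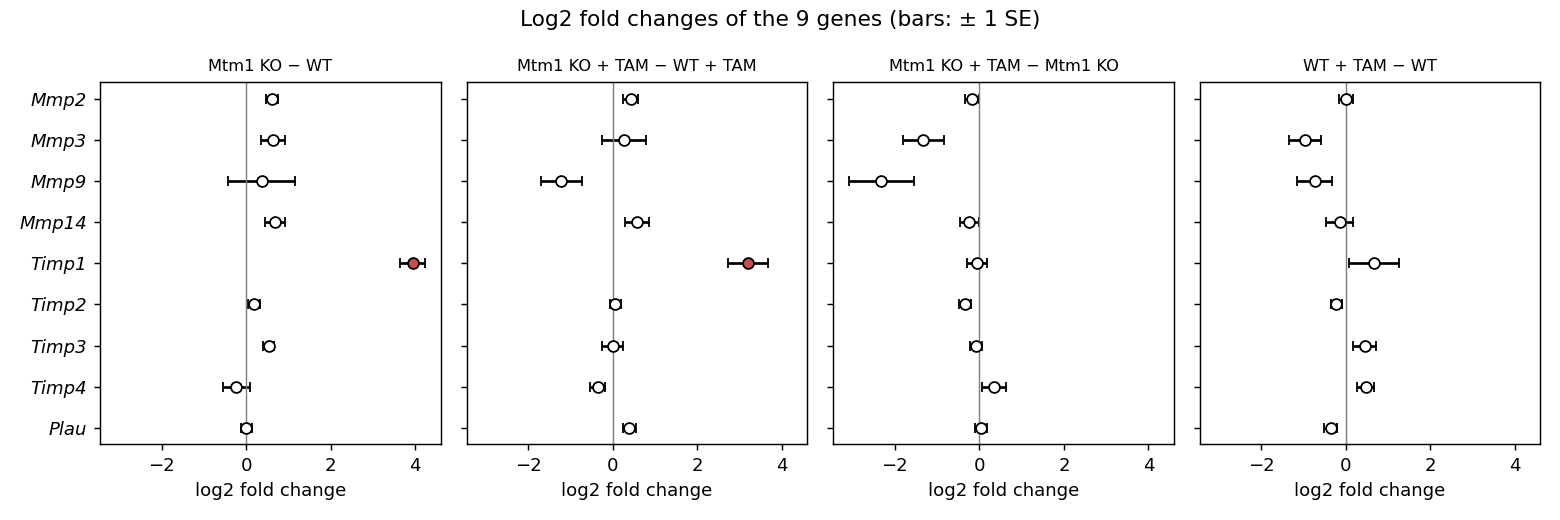
Log2 fold changes of the 9 genes (horizontal axes) in 4 comparisons, with bars of 1 SE on each side. Red points had an edgeR adjusted p of at most 0.01; *Timp1* passed in both comparisons of genotype, at 3.94 and 3.21, and no gene passed in the comparisons of tamoxifen with no tamoxifen.

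Among the proteases, *Mmp2*, the gelatinase that cuts denatured collagen and type IV collagen, had 40.8, 32.2 and 42.3 RPKM in the WT replicates and 63.5, 74.7 and 79.9 in *Mtm1* KO. All 3 knockout libraries lay above all 3 WT libraries. The log2 fold change was 0.62 (SE 0.14, 1.53-fold), with an edgeR adjusted p of 0.0251, past 0.05 but not 0.01. Without *Mtm1* KO replicate 9 it was 0.0207, and without any of the 5 other libraries it lay between 0.0592 and 0.0898, so the pass at 0.05 was lost without WT replicate 2, 3 or 4 or *Mtm1* KO replicate 10 or 11. It was also lost with all 16 libraries, at 0.101. *Mtm1* KO + TAM had 69.5, 71.2, 50.0 and 57.5 RPKM of *Mmp2* and WT + TAM had 44.0, 28.7, 41.5 and 38.9. These groups did not overlap in RPKM but did in TMM-scaled CPM, and the log2 fold change of 0.42 (SE 0.17) did not pass, with an edgeR adjusted p of 0.118. Since the tissue was sequenced in bulk, more cells of a type that makes a transcript and more of it per cell cannot be told apart here, for this gene or the others.

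*Mmp14* encodes a protease anchored in the cell membrane that activates the precursor of the *Mmp2* product on the cell surface. It had 21.1, 16.4 and 20.4 RPKM in WT and 29.2, 55.7 and 30.2 in *Mtm1* KO, of which replicate 10 was the highest. The libraries left out had 30.7 (labelled WT replicate 1) and 78.5 RPKM (*Mtm1* KO replicate 12). The 2 groups did not overlap, with a log2 fold change of 0.68 (SE 0.23), and the edgeR adjusted p of 0.0851 did not pass. Without *Mtm1* KO replicate 10 the log2 fold change was 0.34. *Mtm1* KO + TAM ranged from 27.7 to 35.0 RPKM and WT + TAM from 7.77 to 24.2, a log2 fold change of 0.58 (SE 0.29, edgeR adjusted p = 0.2).

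*Mmp3*, stromelysin-1, which cuts proteoglycans and laminin and activates other precursors, was at low counts. WT had 67, 55 and 38 counts (1.32, 1.11 and 0.767 RPKM) and *Mtm1* KO had 84, 104 and 110 counts (1.79, 2.22 and 2.172 RPKM). The knockout libraries were all above the WT ones, with a log2 fold change of 0.64 (SE 0.29) that did not pass (edgeR adjusted p = 0.17). WT + TAM had 26, 15, 23 and 38 counts and *Mtm1* KO + TAM had 26, 13, 94 and 38. *Mtm1* KO + TAM replicate 15 had as many counts as the untreated knockouts, while the other 3 libraries of its group were within the counts of WT + TAM or below. Between the tamoxifen groups the log2 fold change was 0.27 (SE 0.52), and -0.36 without *Mtm1* KO + TAM replicate 15.

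*Mmp9*, the other gelatinase, is stored in the granules of neutrophils and is also made by macrophages. WT had 190, 85 and 94 counts (1.89, 0.871 and 0.964 RPKM), and *Mtm1* KO had 66, 456 and 34 counts (0.714, 4.96 and 0.341 RPKM) in replicates 9, 10 and 11. The high value came from replicate 10 alone, and the other 2 knockout libraries were below all 3 WT libraries. The log2 fold change of *Mtm1* KO against WT was 0.37 (SE 0.79, edgeR adjusted p = 0.796), and without *Mtm1* KO replicate 10 it was -1.53 (SE 0.44, edgeR adjusted p = 0.0839). In the same library 6 neutrophil genes summed to 196.9 RPKM, against 0.302 to 7.65 in each of the other 15 libraries. The most abundant of them, *S100a9*, had 67.9 RPKM there and at most 1.48 RPKM elsewhere. No gene of the list was at 0 over the 14 libraries. By edgeR 1 of the 6 was tested in *Mtm1* KO against WT and 0 were called in any comparison. The part of neutrophils in the *Mmp9* value was not tested. In the tamoxifen groups *Mmp9* had 45, 37, 113 and 77 counts in WT + TAM and 24, 24, 29 and 79 in *Mtm1* KO + TAM, where replicate 16 was the high one. Between them the log2 fold change was -1.22 (SE 0.49) and the edgeR adjusted p of 0.108 did not pass. Against untreated WT, *Mtm1* KO + TAM was at -1.96 (SE 0.46), with an edgeR adjusted p of 0.0142, past 0.05 only. That value passed 0.01 without *Mtm1* KO + TAM replicate 16 (-2.61, edgeR adjusted p = 0.00157) and missed 0.05 without WT replicate 2 (-1.56, edgeR adjusted p = 0.0592).

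**Figure D3:**
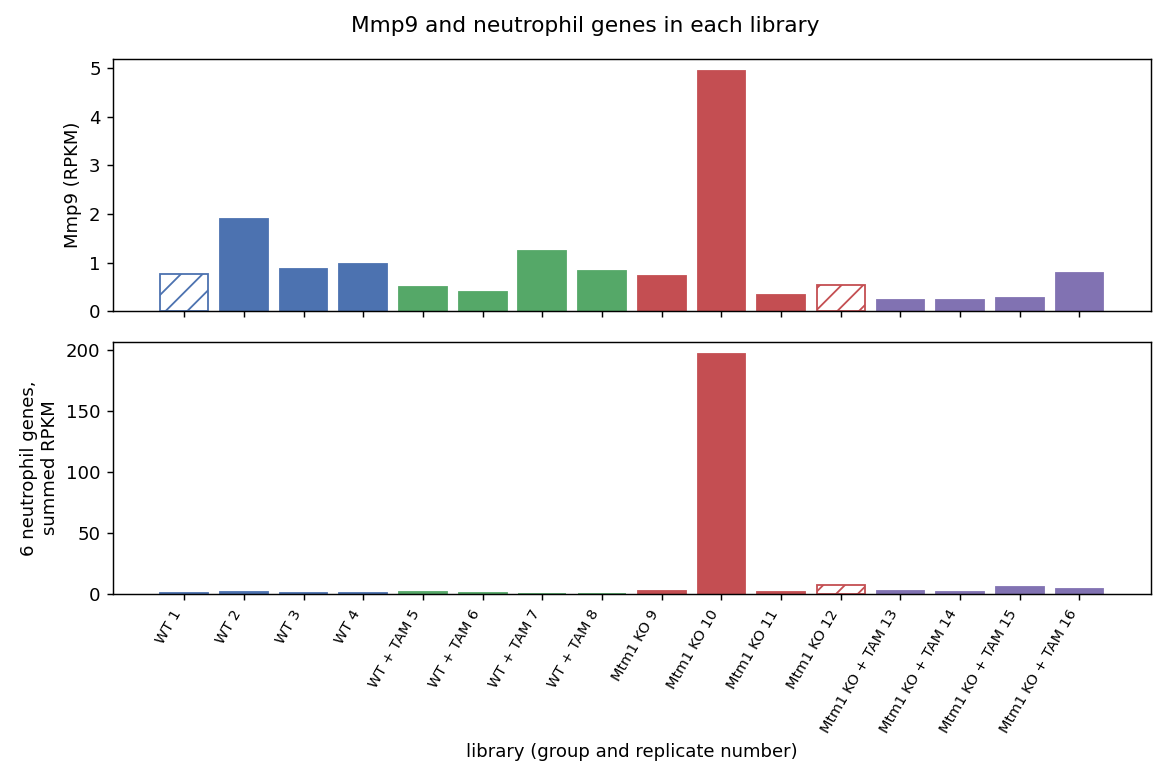
*Mmp9* RPKM (upper bars) and the summed RPKM of 6 neutrophil genes (lower bars) in each of the 16 libraries, with hatched bars for the library labelled WT replicate 1 and *Mtm1* KO replicate 12. *Mtm1* KO replicate 10 has the highest bar in both, at 4.96 and 196.9.

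The activator *Plau* differed little by genotype in the untreated mice. It had 18.4, 16.1 and 18.8 RPKM in WT and 22.2, 25.3 and 18.6 in *Mtm1* KO, and the log2 fold change after TMM scaling was -0.00 (SE 0.13, edgeR adjusted p = 0.998), with an interval of 2 SE on each side from -0.26 to 0.26. The sign turned without WT replicate 4 (0.03) or *Mtm1* KO replicate 9 (0.01) or 11 (0.08), and with library size alone as the scale, where the value was 0.31. WT + TAM had 14.4, 10.2, 16.4 and 14.2 RPKM and *Mtm1* KO + TAM 24.0, 22.0, 20.5 and 20.7. Every treated knockout library was above every treated WT library in RPKM, the groups overlapped in TMM-scaled CPM, and the log2 fold change of 0.39 (SE 0.15) did not pass (edgeR adjusted p = 0.109). It passed 0.01 by limma on log2 RPKM (adjusted p = 0.0076) and with library size as the scale (edgeR adjusted p = 0.00648), 2 settings that carry the shift of all genes given above. *Mmp2* passed in the same settings, with adjusted p of 0.00998 by limma and 0.00773 in edgeR.

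Of the inhibitors, *Timp1* had by far the largest difference among the 9 genes in these comparisons. It had 3.70, 1.67 and 2.13 RPKM in the WT replicates (93, 41 and 52 counts) and 34.6, 60.9 and 46.5 RPKM in *Mtm1* KO (803, 1407 and 1162 counts). All 3 knockout libraries were above every WT library, and the lowest knockout count was more than the sum of the WT counts. *Timp1* rose by 3.94 on the log2 scale (SE 0.30, 15.3-fold), with an edgeR adjusted p of 0.000266. With 1 library left out at a time, the log2 fold change was 3.74 to 4.29 and the edgeR adjusted p was at most 0.00201, so the call was kept in all 6 runs. The library labelled WT replicate 1 had 21.97 RPKM (490 counts), between the other WT libraries and the knockouts, and *Mtm1* KO replicate 12 had 93.9 RPKM, the highest of all 16. With all 16 libraries the log2 fold change was 2.56 (SE 0.82) and the call was lost, at an edgeR adjusted p of 0.104. With *Mtm1* KO replicate 12 added and the library labelled WT replicate 1 left out it was 4.29 (SE 0.44, edgeR adjusted p = 0.0012), so the loss came with the library labelled WT replicate 1.

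With tamoxifen in both genotypes, *Timp1* had 2.52, 0.798, 6.97 and 5.41 RPKM in WT + TAM (58, 19, 159 and 125 counts) and 34.2, 30.7, 61.8 and 50.3 RPKM in *Mtm1* KO + TAM (882, 801, 1638 and 1262 counts). The groups again did not overlap. *Timp1* was higher in *Mtm1* KO + TAM by 3.21 on the log2 scale (SE 0.48, 9.23-fold, edgeR adjusted p = 0.00149), and in all 8 runs with 1 library left out the edgeR adjusted p was at most 0.00638. Against untreated WT the log2 fold change of *Mtm1* KO + TAM was 3.86 (SE 0.30, 14.6-fold, edgeR adjusted p = 8.95e-05), which fell short of a call, at 2.13 and an edgeR adjusted p of 0.117, only where the library labelled WT replicate 1 was added. DESeq2, edgeR's exact test and limma on log2 RPKM each called *Timp1* in all 3 comparisons of *Mtm1* KO or *Mtm1* KO + TAM with a WT group.

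*Timp3*, an inhibitor that is held in the matrix and also acts on ADAM proteases, had 16.7, 14.97 and 13.5 RPKM in WT and 26.2, 28.3 and 26.8 in *Mtm1* KO. The groups did not overlap, and the log2 fold change of 0.54 (SE 0.13, 1.45-fold) had an edgeR adjusted p of 0.0264, past 0.05 but not 0.01. It passed 0.05 without *Mtm1* KO replicate 9 (0.0324) and missed it, at 0.0529 to 0.101, without WT replicate 2, 3 or 4 or *Mtm1* KO replicate 10 or 11. Over all alternatives run, the highest edgeR adjusted p for *Timp3* in this comparison was 0.181, which also missed 0.05. In WT + TAM the libraries were split, with 25.3 and 29.6 RPKM in replicates 5 and 6 and 13.7 and 13.3 in replicates 7 and 8, the pair most alike over all genes. *Mtm1* KO + TAM had 26.5, 28.8, 21.5 and 22.3 RPKM, between these values or near the upper ones. The log2 fold change between the tamoxifen groups was 0.00 (SE 0.25), and it was negative without WT + TAM replicate 7 (-0.15) or 8 (-0.16) or *Mtm1* KO + TAM replicate 13 (-0.05) or 14 (-0.06).

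*Timp2*, which inhibits the MMP2 enzyme and also takes part in its activation, was at 54.996, 56.0 and 52.0 RPKM in WT and 64.4, 83.4 and 81.7 in *Mtm1* KO. In RPKM the groups were apart, but in TMM-scaled counts they overlapped, and the log2 fold change was 0.18 (SE 0.15, edgeR adjusted p = 0.45). It was 0.49 with library size as the scale. Between the tamoxifen groups it was 0.06 (SE 0.12), and -0.03 without WT + TAM replicate 6. *Timp4* ranged from 13.6 to 24.9 RPKM in WT, 12.6 to 28.9 in *Mtm1* KO, 22.8 to 30.0 in WT + TAM and 18.2 to 30.3 in *Mtm1* KO + TAM, all of which overlapped. Its log2 fold change was -0.23 (SE 0.32) in *Mtm1* KO against WT, which was 0.01 without WT replicate 2, 0.02 without *Mtm1* KO replicate 10 and 0.06 with library size as the scale, and -0.36 (SE 0.17, edgeR adjusted p = 0.172) between the tamoxifen groups.

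The makeup of each family was described as shares of its summed RPKM. The 4 TIMP genes summed to 90.1 ± 9.56 RPKM (SD, n = 3) in WT, 96.0 ± 7.11 (n = 4) in WT + TAM, 169.97 ± 25.2 (n = 3) in *Mtm1* KO and 151 ± 11.9 (n = 4) in *Mtm1* KO + TAM. *Timp1* made up 2.73 ± 0.908% of that sum in WT and 4.14 ± 3.03% in WT + TAM, against 27.6 ± 4.63% in *Mtm1* KO and 28.8 ± 7.49% in *Mtm1* KO + TAM. The share of *Timp2* was 60.6 ± 4.99% in WT and 45.0 ± 0.605% in *Mtm1* KO. *Timp2* was thus the largest share of the TIMP sum in each of these groups, and *Timp1* went from the smallest share in WT to the next largest in the knockout. The 4 metalloproteinase genes summed to 60.03 ± 8.17 RPKM in WT, 56.9 ± 13.5 in WT + TAM, 115 ± 21.3 in *Mtm1* KO and 94.5 ± 11.03 in *Mtm1* KO + TAM. *Mmp2* made up 64.0%, 68.5%, 64.0% and 65.5% of these sums and *Mmp14* 32.1%, 29.3%, 32.7% and 33.2%, in the order of the groups just given. The shares of the rest were small, at 1.80%, 0.945%, 1.81% and 0.930% for *Mmp3* and 2.04%, 1.26%, 1.55% and 0.412% for *Mmp9*. These shares are descriptions with no test, and they inherit the gene lengths used for RPKM.

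The effect of tamoxifen within each genotype was compared next. In *Mtm1* KO + TAM against *Mtm1* KO, edgeR's quasi-likelihood test called 0 of the 9 genes, beside 0% of all 15062 genes tested. At an unadjusted p of at most 0.05 there were 3 of the 9 and 1137 of all genes, and DESeq2 called 0 of the 9 and 72 of all genes. The 3 were *Mmp9* (log2 fold change -2.32, SE 0.78, edgeR adjusted p = 0.462), *Mmp3* (-1.32, SE 0.48, edgeR adjusted p = 0.507) and *Timp2* (-0.33, SE 0.14, edgeR adjusted p = 0.607). The *Mmp9* value rested on *Mtm1* KO replicate 10, without which it was -0.41 (edgeR adjusted p = 0.965). For *Mmp3* the groups did not overlap in CPM, since the 3 untreated knockouts were at 1.79 to 2.22 RPKM and the treated ones at 0.246 to 1.75, and its log2 fold change was -1.96 to -1.02 with 1 library left out. The share of all genes without overlap was not computed for *Mtm1* KO + TAM against *Mtm1* KO, so this separation cannot be set against a background. For *Timp1* the log2 fold change was -0.06 (SE 0.24), an interval of 2 SE on each side from -0.54 to 0.42, which turned positive without *Mtm1* KO replicate 10 (0.14) or *Mtm1* KO + TAM replicate 13 (0.03) or 14 (0.09). The log2 fold changes of *Mmp2* (-0.18, SE 0.17), *Mmp14* (-0.24, SE 0.22), *Timp3* (-0.08, SE 0.15), *Timp4* (0.35, SE 0.28) and *Plau* (0.04, SE 0.14) were within 2 SE of 0. Of these, *Mmp14* changed sign without *Mtm1* KO replicate 10 (0.11), *Timp3* without *Mtm1* KO + TAM replicate 15 (0.01), and *Plau* without *Mtm1* KO replicate 11 or *Mtm1* KO + TAM replicate 13 (-0.04 in each). Of the 9 values 7 were negative, with a median of -0.18, against -0.01 over all genes tested.

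In WT + TAM against WT, edgeR's quasi-likelihood test called 0 of the 9 genes, beside 0.131% of all genes (19 of 14544). At an unadjusted p of at most 0.05 there were 3 of the 9 and 1549 of all genes, and DESeq2 called 0 of the 9 and 214 of all genes. The 3 were *Mmp3* (log2 fold change -0.96, SE 0.38, edgeR adjusted p = 0.404), *Timp4* (0.46, SE 0.20, edgeR adjusted p = 0.445) and *Plau* (-0.36, SE 0.16, edgeR adjusted p = 0.453), of which only *Plau* had groups that did not overlap in TMM-scaled CPM, while in RPKM its groups overlapped. The share of all genes without overlap was not computed for this comparison, so the separation of *Plau* cannot be set against a background. *Timp1* had a log2 fold change of 0.66 (SE 0.60), and of -1.08 (SE 0.89) with the library labelled WT replicate 1 added. *Mmp9* was at -0.74 (SE 0.41), *Timp3* at 0.44 (SE 0.27), *Timp2* at -0.23 (SE 0.13), *Mmp14* at -0.15 (SE 0.32) and *Mmp2* at 0.00 (SE 0.16). The sign of *Mmp14* turned without WT + TAM replicate 6 (0.10), and that of *Mmp2* without WT replicate 3 (-0.07) or WT + TAM replicate 5 (-0.09), 7 (-0.04) or 8 (-0.00). The median of the 9 was -0.15, against -0.00 over all genes tested. The 19 genes called over the whole table came to 2 to 12 without WT replicate 2, 3 or 4 or WT + TAM replicate 5, 7 or 8.

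Whether tamoxifen acted differently in the knockout was tested as an interaction in 1 fit of the 4 groups. By edgeR's quasi-likelihood test 0 of the 9 genes passed, beside 0% of all 15556 genes tested, and 0 of the 9 and 664 of all genes were at an unadjusted p of at most 0.05. DESeq2 called 0 of the 9 and 12 of all genes. The interaction was -0.71 (SE 0.65) for *Timp1*, -1.57 (SE 1.01) for *Mmp9* and 0.41 (SE 0.21) for *Plau*, and the other 6 were between -0.51 and -0.08. Signs turned for *Mmp9* without *Mtm1* KO replicate 10 (0.33), for *Mmp14* without WT + TAM replicate 7 (0.08) or 8 (0.12), *Mtm1* KO replicate 10 (0.27) or *Mtm1* KO + TAM replicate 15 (0.00), and for *Timp4* without WT replicate 4 (0.08), WT + TAM replicate 5 (0.00), *Mtm1* KO replicate 11 (0.36) or *Mtm1* KO + TAM replicate 14 (0.01). A difference in the response to tamoxifen between the genotypes was therefore not shown for any of the 9 genes.

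Other genes of the same pathways were examined from 8 lists, which were chosen with earlier results of these data known. The shares of all genes called stand beside the counts in these lists and in the marker lists below. They were 3.6% in *Mtm1* KO against WT, 6.72% between the tamoxifen groups and 7.7% in *Mtm1* KO + TAM against WT. Among other metalloproteinases 9 of 19 were tested in *Mtm1* KO against WT and 0 were called, with a median log2 fold change of 0.65 against 0.02 over all genes, and *Mmp1a*, *Mmp1b*, *Mmp7* and *Mmp20* had 0 counts in the 14 libraries. *Mmp15*, the most abundant of that list in RPKM, fell by 0.86 in *Mtm1* KO + TAM against WT (SE 0.16, edgeR adjusted p = 0.00473), and *Mmp16*, at 4 to 63 counts in the 14 libraries, rose by 1.76 in *Mtm1* KO + TAM against WT + TAM (SE 0.36, edgeR adjusted p = 0.00793). Neither call was firm. That of *Mmp16* was lost in all 8 runs with 1 library left out (highest edgeR adjusted p = 0.0257, without *Mtm1* KO + TAM replicate 14), and that of *Mmp15* without WT replicate 2, 3 or 4 or *Mtm1* KO + TAM replicate 13 or 14 (highest 0.0235). The ADAM and ADAMTS proteases had 0 of 24 called in *Mtm1* KO against WT, with a median of -0.00, and 1 of 25 between the tamoxifen groups, *Adamts12* at -1.23 (SE 0.26, edgeR adjusted p = 0.00908). That call was kept in 1 of 8 runs, without WT + TAM replicate 5, and the highest edgeR adjusted p was 0.0255, without WT + TAM replicate 6.

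Of the rest of the plasminogen system, *Anxa2* (1.32, SE 0.19, edgeR adjusted p = 0.00394) and *S100a10* (1.03, SE 0.15, edgeR adjusted p = 0.00469), whose products form a plasminogen receptor on the cell surface, rose in *Mtm1* KO against WT. Both calls were lost without WT replicate 2, 3 or 4 or *Mtm1* KO replicate 10 or 11, with edgeR adjusted p up to 0.0207 for *Anxa2* and 0.024 for *S100a10*. *Anxa2* also rose in *Mtm1* KO + TAM against WT + TAM (1.14, SE 0.23), a call kept in 2 of 8 runs, without WT + TAM replicate 6 or *Mtm1* KO + TAM replicate 14, with a highest edgeR adjusted p of 0.0241. Against WT, *Mtm1* KO + TAM had *Anxa2* (1.16) and *S100a10* (0.96) higher and *Serpine2* (-0.67) lower. All 3 lost their calls without WT replicate 3 or 4. *S100a10* and *Serpine2* also did so without WT replicate 2 or *Mtm1* KO + TAM replicate 13 or 15, and *Serpine2* without *Mtm1* KO + TAM replicate 14. The highest edgeR adjusted p was 0.0145 for *Anxa2*, 0.0216 for *S100a10* and 0.0208 for *Serpine2*.

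The cathepsins, proteases known mainly from lysosomes, and the cystatins, which inhibit them, had 3 of 14 genes higher and 0 lower in *Mtm1* KO against WT, with a median of 0.41. These were the inhibitors *Cst6* (1.95, SE 0.25, edgeR adjusted p = 0.00218) and *Cstb* (1.60, SE 0.20, edgeR adjusted p = 0.00233) and the protease *Ctsz* (1.01, SE 0.16, edgeR adjusted p = 0.00632). *Cst6* kept its call in all 6 runs with 1 library left out, *Cstb* lost it without WT replicate 4 or *Mtm1* KO replicate 11 (highest edgeR adjusted p = 0.0132), and *Ctsz* in all runs but that without *Mtm1* KO replicate 9 (highest 0.0309). The comparisons of *Mtm1* KO + TAM with WT + TAM and with WT each had 4 of 14 higher and 0 lower, with *Ctsk* between the tamoxifen groups (0.88) and *Ctss* in *Mtm1* KO + TAM against WT (1.15) beside the same 3 genes. *Ctsk* was no longer called without WT + TAM replicate 5 or 8 or *Mtm1* KO + TAM replicate 13, 14 or 16 (highest edgeR adjusted p = 0.0157), and *Ctss* without WT replicate 2, 3 or 4 (highest 0.0127). *Ctsz* was no longer called in 6 of the 8 runs between the tamoxifen groups, all but those without WT + TAM replicate 5 or 6 (highest 0.0289), and without WT replicate 4 in *Mtm1* KO + TAM against WT (0.0125).

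Among 24 genes for matrix proteins that these proteases cut, 1 rose and 0 fell in *Mtm1* KO against WT, and the median was 0.09 against 0.02 over all genes. It was *Postn*, periostin, at 1.43 (SE 0.21, edgeR adjusted p = 0.00462), a call kept only without *Mtm1* KO replicate 11 among the 6 runs (highest edgeR adjusted p = 0.0237, without WT replicate 4). Between the tamoxifen groups 3 rose and 0 fell, with a median of 0.39 against -0.01 over all genes. *Spp1*, osteopontin, had the largest change of these (2.73, SE 0.28, edgeR adjusted p = 0.000216), followed by *Postn* (2.18, SE 0.26) and elastin, *Eln* (1.01, SE 0.20). *Spp1* and *Postn* kept their calls in all 8 runs with 1 library left out, and *Eln* lost its call without WT + TAM replicate 5 or any *Mtm1* KO + TAM library (highest edgeR adjusted p = 0.0203). *Postn* also rose in *Mtm1* KO + TAM against WT (1.94, call kept in all 7 runs), where *Agrn* fell (-0.74), a call lost without WT replicate 2 or 4 or *Mtm1* KO + TAM replicate 14 or 15 (highest edgeR adjusted p = 0.0195).

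Among cytokines and AP-1 subunits known as inducers of this gene family, 2 of 11 tested genes were higher and 0 lower in *Mtm1* KO against WT, with a median of 0.41. *Tgfb1* rose by 1.22 (SE 0.18, edgeR adjusted p = 0.00399), with a call lost without WT replicate 4 or any *Mtm1* KO library (highest edgeR adjusted p = 0.021). The AP-1 subunit *Fosl1* had 0, 2 and 0 counts in WT and 101, 74 and 147 in *Mtm1* KO, a ratio of 167 relative to library totals, with a 95% interval for counting error alone from 46 to 1390, and kept its call in all 6 runs. With tamoxifen in both genotypes *Tgfb1* (1.19, SE 0.16), *Fosl1* (4.25, SE 0.55) and the AP-1 subunit *Junb* (1.98, SE 0.29) rose, and all 3 calls were kept in all 8 runs with 1 library left out. *Tgfb1* (1.12) and *Fosl1* were also called in *Mtm1* KO + TAM against WT, that of *Tgfb1* not without WT replicate 4 (edgeR adjusted p = 0.0117). Other partners of the proteases had 0 of 10 called in *Mtm1* KO against WT. *Cd44* (1.32) and the protease inhibitor *Tfpi2* (1.78) rose and *Bsg* (-0.65) fell between the tamoxifen groups, and in *Mtm1* KO + TAM against WT *Cd44* (1.13) and *Lrp1* (0.67) rose. *Cd44* kept its call in all 8 runs between the tamoxifen groups, *Tfpi2* lost it without *Mtm1* KO + TAM replicate 15 (edgeR adjusted p = 0.0115), and *Bsg* in all runs but that without *Mtm1* KO + TAM replicate 13 (highest 0.0311). Against WT, *Cd44* lost its call without WT replicate 4 (0.0123) and *Lrp1* without WT replicate 3 or 4 (highest 0.0147). In both comparisons of tamoxifen with no tamoxifen and in the interaction, edgeR called 0 genes of each of the 8 lists. Of all genes of these lists tested, 12 of 105 were at an unadjusted p of at most 0.05 in *Mtm1* KO + TAM against *Mtm1* KO, 21 of 102 in WT + TAM against WT and 10 of 106 in the interaction, and DESeq2 called 0, 1 and 0. The matrix proteins had the lowest median in WT + TAM against WT, at -0.33 with 1 of 24 positive, against -0.00 over all genes. With all 16 libraries the only gene of these lists still called in *Mtm1* KO against WT among those named was *Fosl1* (edgeR adjusted p = 0.000672). The others had edgeR adjusted p of 0.059 (*Anxa2*), 0.0654 (*S100a10*), 0.145 (*Ctsz*), 0.0441 (*Cst6*), 0.0457 (*Cstb*), 0.0222 (*Postn*) and 0.0422 (*Tgfb1*). In *Mtm1* KO + TAM against WT, *Cd44* (0.00873), *Ctss* (0.00745), *Postn* (0.00436) and *Fosl1* (0.00143) stayed called with the library labelled WT replicate 1 added. Calls lost there were those of *Mmp15* (0.0158), *Serpine2* (0.0164), *Anxa2* (0.0991), *S100a10* (0.0999), *Lrp1* (0.0548), *Ctsz* (0.366), *Cst6* (0.0643), *Cstb* (0.0464), *Agrn* (0.168) and *Tgfb1* (0.0561).

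Markers of cell types in the tissue were read from 11 lists of 5 or 6 genes, none of which had a gene at 0 counts over the 14 libraries. The 5 genes of fast muscle fibres, led by *Acta1*, summed to 43147 to 76153 RPKM in the 14 libraries, as the labelled muscle would have. Their sum was 64788 to 76153 RPKM in WT and 47420 to 51699 in *Mtm1* KO, and 0 of 5 were called there, while *Myh4* (-1.24, SE 0.16) and *Ckm* (-0.87, SE 0.18) fell between the tamoxifen groups. The *Ckm* call was lost in 7 of 8 runs, all but that without *Mtm1* KO + TAM replicate 13 (highest edgeR adjusted p = 0.0278). *Myh4* also fell in *Mtm1* KO + TAM against WT (-1.37), not without WT replicate 2 or *Mtm1* KO + TAM replicate 13, 14 or 15 (highest 0.0143) nor with all 16 libraries (0.0266).

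Several sums were higher in the knockout libraries, in which *Timp1* was higher too. The 6 fibroblast genes, led by *Dcn*, summed to 632, 623 and 680 RPKM in WT, 758, 1122 and 814 in *Mtm1* KO, 502, 411, 590 and 577 in WT + TAM, and 743, 756, 738 and 739 in *Mtm1* KO + TAM. The 6 macrophage genes, led by *Lyz2*, summed to 71.5, 59.1 and 60.04 RPKM in WT, 104, 128 and 116 in *Mtm1* KO, 73.5, 29.8, 66.4 and 67.9 in WT + TAM, and 101, 102, 175 and 92.0 in *Mtm1* KO + TAM. The 5 tendon genes, led by *Thbs4*, summed to 99.2, 111 and 108 RPKM in WT, 201, 354 and 219 in *Mtm1* KO, 99.0, 69.0, 132 and 126 in WT + TAM, and 255, 238, 255 and 303 in *Mtm1* KO + TAM. For all 3 lists every knockout sum was above every WT sum of the same treatment, but a sum follows its most abundant genes. The median log2 fold change of the tendon list was 1.18 in *Mtm1* KO against WT, with 5 of 5 genes positive, but -0.09 between the tamoxifen groups and -0.30 in *Mtm1* KO + TAM against WT, with 2 of 5 positive in each. The fibroblast medians were 0.34, 0.32 and 0.08 in the same comparisons, with 5, 5 and 3 of 6 positive, and the macrophage medians 0.50, 0.53 and 0.48, with 5, 6 and 6 of 6 positive. Of the tendon genes positive in *Mtm1* KO against WT, *Tnmd* (0.04, SE 0.26) and *Mkx* (0.02, SE 0.48) were near 0. *Chad* (1.44, SE 0.80) had 75.1 RPKM in *Mtm1* KO replicate 10, against 4.72 and 11.3 in replicates 9 and 11. These tendon genes were named after their values were seen. The sums ran to 643 (fibroblast), 33.1 (macrophage) and 228 RPKM (tendon) in the library labelled WT replicate 1, and to 942, 74.1 and 256 in *Mtm1* KO replicate 12. Relative to all genes, 0 of 6 fibroblast and 0 of 6 macrophage genes were called in any comparison. *Thbs4* was called in the untreated knockout against WT, between the tamoxifen groups and in *Mtm1* KO + TAM against WT, at 1.19 (SE 0.15), 1.45 (SE 0.18) and 1.52 (SE 0.15), of which the call against untreated WT in *Mtm1* KO was lost without WT replicate 2 or 4 (highest edgeR adjusted p = 0.016). *Scx* of the same list rose in *Mtm1* KO + TAM against WT (1.24, SE 0.20), not without WT replicate 4 (edgeR adjusted p = 0.0124). With all 16 libraries both calls of *Thbs4* against untreated WT were lost, at 0.82 (edgeR adjusted p = 0.136) and 1.13 (edgeR adjusted p = 0.0385), and *Scx* was at 0.25 (edgeR adjusted p = 0.827). The part of these cell types in the *Timp1* result was not tested.

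For the other lists the sums were described in the same way. The 5 satellite cell genes, led by *Sdc4*, summed to 31.5 to 39.7 RPKM in WT, 33.8 to 45.1 in WT + TAM, 53.9 to 78.4 in *Mtm1* KO and 51.1 to 72.5 in *Mtm1* KO + TAM. Its genes differed in direction, with a median of 0.03 in *Mtm1* KO against WT (3 of 5 positive) and -0.39 between the tamoxifen groups (2 of 5 positive). *Pax7* of this list, named after its values were seen, was at -1.39 (SE 0.28, edgeR adjusted p = 0.0161) and -1.26 (SE 0.31, edgeR adjusted p = 0.0175) in these comparisons, neither past 0.01. The osteoclast list, led by *Ctsk*, summed to 18.5 to 34.3, 16.6 to 21.7, 35.9 to 69.1 and 30.9 to 36.4 RPKM in the same order of groups. Genes of this list differed in direction too. Its median was 0.58 in *Mtm1* KO against WT (2 of 3 tested positive) and -0.06 between the tamoxifen groups (1 of 3 positive). In *Mtm1* KO against WT *Ctsk* was at 0.58 (SE 0.18) and *Calcr*, at most 0.389 RPKM in any library, at -4.55 (SE 0.70). Endothelial genes (led by *Cdh5*, 38.1 to 75.1 RPKM over the 14 libraries) and red blood cell genes (*Hbb-bs*, 74.1 to 369) had sums that overlapped between WT and *Mtm1* KO. In *Mtm1* KO + TAM against WT 1 gene was called in each of 3 of these lists, *Sdc4* (0.79, SE 0.14), *Cdh5* (-1.01, SE 0.19) and *Calcr* (-3.02, SE 0.56). Each was lost without WT replicate 2 or 4, all but *Cdh5* without WT replicate 3, *Sdc4* and *Cdh5* without *Mtm1* KO + TAM replicate 14, *Cdh5* without replicate 15, and *Calcr* without replicate 13, 15 or 16. The highest edgeR adjusted p in these runs was 0.0163, 0.0229 and 0.0221 in the order of the genes named. With all 16 libraries all 3 calls were lost too, at 0.149 (*Sdc4*), 0.0299 (*Cdh5*) and 0.0319 (*Calcr*). In *Mtm1* KO against WT 0 genes of the endothelial list, of the red blood cell list, of the neutrophil list, of the satellite cell list and of the fat cell list were called, and *Calcr* of the osteoclast list was lower, a call lost in all 6 runs with 1 library left out (highest edgeR adjusted p = 0.0249, without *Mtm1* KO replicate 11) and a gene that the filter removed with all 16 libraries. Fat cell genes, led by *Cfd*, varied within groups, at 899.7, 65.0 and 101 RPKM in WT and 1349, 753, 311 and 303 in WT + TAM. WT + TAM replicates 5 and 6, with the higher fat cell sums, were also the libraries with the higher *Timp3* and the lower *Mmp14* and *Timp1* values of that group. This pattern did not hold in full in the untreated groups. WT replicate 2, with the highest sum, had the highest *Timp3* (16.7 RPKM) but also the highest *Mmp14* (21.1) and *Timp1* (3.70). *Mtm1* KO replicate 9, with the highest sum of its group (912), had the lowest *Mmp14* (29.2) and *Timp1* (34.6) of the libraries analysed there, but also the lowest *Timp3* (26.2). The part of fat cells in these values was not tested. In the tamoxifen comparisons and the interaction edgeR called 0 genes of the 11 lists. At an unadjusted p of at most 0.05 there were 8 of 53 in *Mtm1* KO + TAM against *Mtm1* KO, 6 of 50 in WT + TAM against WT and 2 of 55 in the interaction, and DESeq2 called 2, 1 and 0. Beside these unadjusted counts stand 1137 of 15062, 1549 of 14544 and 664 of 15556 over the whole table.

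Genes with patterns most like those of the 9 were found by Pearson's r of log2 CPM over the 14 libraries, among 15555 other genes. These libraries hold both genotypes and both treatments, so r carries the group differences, and it is given as a description with no test. The genes most like *Timp1* were *Rhoc* (r = 0.982), *Tmem119* (0.975) and *Tuba1b* (0.975). For *Mmp2* they were *Slc29a1* (0.954), *Slc8b1* (0.921) and *Mxra8* (0.917), and for *Mmp14* *Ssc5d* (0.9499), *Pea15a* (0.948) and *Cd34* (0.943). *Plau* was most like *Prcp* (0.922), *Mrps23* (0.917) and *Cd83* (0.912). The remaining 5 genes had no r above 0.884, and the highest were those with *Mical1*, *Alg8* and *RP23-313K8.2* for *Mmp3*, *Itga11*, *Fbxw7* and *Fgd1* for *Mmp9*, *Snrpa*, *Fbxl22* and *2500002B13Rik* for *Timp2*, *Glul*, *Chchd6* and *Baz1b* for *Timp3*, and *B3gat2*, *Gm16559* and *Zfp773* for *Timp4*. Among the 9 genes themselves, the highest r was that of *Mmp14* with *Plau* (0.82), followed by *Mmp14* with *Timp1* (0.778), *Mmp2* with *Timp1* (0.77) and *Mmp2* with *Mmp14* (0.749). *Mmp9* and *Timp1* had r = -0.213, and *Timp4* had a negative r with all others but *Timp3* (0.07).

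In the GENCODE vM21 annotation of GRCm38, the proteases lie on 4 chromosomes and *Plau* shares chromosome 14 with *Mmp14*. *Mmp2* (ENSMUSG00000031740) is at chr8:92827291-92853420, *Mmp3* (ENSMUSG00000043613) at chr9:7445822-7455975, *Mmp9* (ENSMUSG00000017737) at chr2:164940780-164955850, *Mmp14* (ENSMUSG00000000957) at chr14:54431612-54445364 and *Plau* (ENSMUSG00000021822) at chr14:20836660-20843385, all on the plus strand and overlapping no other gene. The TIMP genes all overlap another gene, and 3 of them lie inside synapsin genes on the opposite strand. *Timp1* (ENSMUSG00000001131, chrX:20870166-20874735, plus strand) lies inside *Syn1* with 0 exonic bases shared. *Timp3* (ENSMUSG00000020044, chr10:86300372-86349506, plus strand) lies inside *Syn3* with 1733 exonic bases shared. *Timp4* (ENSMUSG00000030317, chr6:115241892-115252205, minus strand) lies inside *Syn2* with 90 exonic bases shared and inside *Gm17482* with 0. *Timp2* (ENSMUSG00000017466, chr11:118301069-118355740, minus strand) holds *Cep295nl* on its own strand, with 0 exonic bases shared. Whether reads were counted by strand is not given in the sources used here, and without strand the reads of *Timp3* and *Timp4* in the shared exons cannot be told from those of their hosts. The 3 synapsin genes, the list of hosts, summed to 0.701 to 1.33 RPKM in the 14 libraries, and 0 of 3 were called in *Mtm1* KO against WT. *Syn3* had 44 to 250 counts where *Timp3* had 2817 to 6889.

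Promoter sequence from RefSeq (GRCm38.p6, from 250 bases before to 50 bases after the start of the gene) was at hand for 6 of the 9 genes, *Timp1*, *Timp2*, *Timp3*, *Timp4*, *Mmp3* and *Mmp14*. *Mmp2*, *Mmp9* and *Plau* are named only. Both strands were searched for 5 motifs, the AP-1 consensus TGANTCA, found in 7.81% of 32851 promoters of the same length, the AP-1 variant TGAGTAA (2.68%), the STAT element TTCNNNGAA (8.3%), the GC box GGGCGG (35.7%) and the TATA box TATAAA (13.6%). The AP-1 consensus was found in *Mmp3* alone among the 6, at position -46, and the AP-1 variant in *Timp1* alone, at position 27 counted from the start of the gene. A GC box was found in *Timp1*, *Timp2*, *Timp3* and *Mmp14*, a TATA box in *Mmp3*, and none of the 5 motifs in *Timp4*. A match is a description of letters and not a site or a cause, and no match says only that these letters are not in the window. The upstream bases of *Timp1* (chrX:20869916-20870165, plus strand) are printed since it is the gene called, with the GC box, on the minus strand, in capitals. Those of *Mmp3* (chr9:7445572-7445821, plus strand) are printed for the AP-1 consensus, in capitals. A stretch of *Timp1* just after its start (chrX:20870184-20870206, plus strand) has the AP-1 variant in capitals.
Timp1 upstream: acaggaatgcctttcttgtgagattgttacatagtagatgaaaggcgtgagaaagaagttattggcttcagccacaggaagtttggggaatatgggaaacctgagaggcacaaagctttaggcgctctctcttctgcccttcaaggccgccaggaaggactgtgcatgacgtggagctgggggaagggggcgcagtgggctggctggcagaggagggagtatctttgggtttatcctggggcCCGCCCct
Mmp3 upstream: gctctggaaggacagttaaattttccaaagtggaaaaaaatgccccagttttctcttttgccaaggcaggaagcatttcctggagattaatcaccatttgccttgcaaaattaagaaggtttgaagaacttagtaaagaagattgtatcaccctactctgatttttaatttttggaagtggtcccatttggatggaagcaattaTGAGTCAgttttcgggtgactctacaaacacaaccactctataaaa
Timp1 after the start: tgggtggaTGAGTAAtgcgtcca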

How the data were processed

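RNA from mouse quadriceps (16 libraries in 4 groups) was examined from 32 columns in 2 deposited tables, of which 0 were left unused. Per the submitters' processing notes, reads were called with bcl2fastq 2.17, aligned with STAR 2.5.0c and measured with Cufflinks 2.2.1, and per the study's methods they were counted with HTSeq. One table holds raw counts per gene as deposited by the authors, and the other holds RPKM as deposited by the authors. The sources used here do not give the strand setting, the annotation or the gene lengths. RPKM was checked against the counts and library totals. Total counts ranged from 25116179 to 29847222.

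Counts were filtered with filterByExpr (minimum count 10, minimum total 15), scaled by TMM and tested with edgeR 4.0.16 (quasi-likelihood, R 4.3.3) in each of 5 pairwise comparisons and in 1 interaction test, with Benjamini-Hochberg adjustment and a threshold of 0.01. SE is the log2 fold change divided by the square root of F. The library labelled WT replicate 1 and *Mtm1* KO replicate 12 were left out, taken to be the 2 libraries that the study did not use. The alternatives run were the exact test of edgeR, DESeq2 1.42.0, limma 3.58.1 on log2 RPKM with 0.1 added, RLE or library-size scaling, all 16 libraries, no filter, a filter of at least 10 counts in every library, the 4 groups in 1 fit, *Mtm1* KO replicate 12 added, a threshold of 0.05 and each library left out. WT + TAM replicates 7 and 8 summed as 1 library was an alternative chosen after seeing the data. The pipeline was tested on simulated data. Likeness used log2 CPM with a prior count of 2.

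The 9 genes and the lists were chosen with earlier results of these data known. Genes named are the 9, the called genes of 8 related lists (at most 6 per list and comparison, by p), the 3 genes most like each of the 9, hosts that overlap them, and from 11 marker lists the most abundant gene, those called and those at 0 counts. The grouping of samples, the comparisons and the alternatives, except the sum of WT + TAM replicates 7 and 8, were set before the data were examined. The results of some genes on these lists are not reported here.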

Additional observations from a re-analysis of the deposited data

Results flagged for a closer look

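In 36 groups of 4 libraries (9 genes in 4 groups, all 16 libraries), 4 had a library whose RPKM was far from the other 3 by Dixon's test, where chance gives about 1 in 20 groups. They were *Mmp9* in *Mtm1* KO replicate 10 (4.955), *Mmp9* in *Mtm1* KO + TAM replicate 16 (0.79), *Timp1* in the library labelled WT replicate 1 (21.97) and *Timp4* in WT + TAM replicate 5 (29.979). The libraries left out lay above the others of their groups in some genes and below them in others. The library labelled WT replicate 1 was above the other 3 WT libraries in *Mmp14* (30.739 RPKM), *Timp1* (21.97) and *Timp4* (30.592), and below them in *Timp2* (46.826), *Timp3* (10.374), *Plau* (12.796) and *Mmp9* (0.765). *Mtm1* KO replicate 12 was above the other 3 of its group in *Mmp14* (78.496 RPKM) and *Timp1* (93.89), and below them in *Mmp2* (55.85), *Mmp3* (1.584), *Timp3* (25.83) and *Plau* (15.279). These values are given without an explanation.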

How the results depend on the processing

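*Timp1* was called in *Mtm1* KO against WT, in *Mtm1* KO + TAM against WT + TAM and in *Mtm1* KO + TAM against WT under every alternative run, except that both calls against untreated WT were lost with all 16 libraries. That setting adds no library to WT + TAM or *Mtm1* KO + TAM. Of the 9 genes 1 was called in each of these comparisons. In *Mtm1* KO against WT the count was 3 with DESeq2, limma, library size as the scale or a threshold of 0.05 (*Mmp2*, *Timp1* and *Timp3*), 2 with the exact test (*Mmp2* and *Timp1*) and 0 with all 16 libraries. The tamoxifen groups had 3 with limma or library size (*Mmp2*, *Timp1* and *Plau*). In *Mtm1* KO + TAM against WT it was 2 with DESeq2, the exact test, no filter or a threshold of 0.05 (*Mmp9* and *Timp1*), 3 with limma (*Mmp14*, *Timp1* and *Timp3*), 4 with library size (*Mmp2*, *Mmp14*, *Timp1* and *Timp3*) and 0 with all 16 libraries. With 1 library left out at a time it was 1 to 2. In both tamoxifen comparisons and the interaction it was 0 under each alternative.

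Signs changed for values that were not called, with or without the change. In *Mtm1* KO against WT these were *Mmp9* with limma (-0.061), *Timp4* with limma (0.017) and library size (0.063), and *Plau* with limma (0.30), library size (0.31), no filter (0.012) and at least 10 counts in every library (0.0098). *Plau* did so in *Mtm1* KO + TAM against *Mtm1* KO with limma (-0.0069) and library size (-0.015). In WT + TAM against WT they were *Mmp2* with limma (-0.014), library size (-0.0057), all 16 libraries (-0.024) and WT + TAM replicates 7 and 8 summed (-0.018), and *Timp1* with all 16 libraries (-1.08). *Timp3* changed sign between the tamoxifen groups with replicates 7 and 8 summed (-0.15). For *Mtm1* KO + TAM against WT they were *Timp2* with limma (0.11) and library size (0.11) and *Timp4* with all 16 libraries (-0.21). In the interaction they were *Mmp14* with limma (0.036) and replicates 7 and 8 summed (0.093), and with all 16 libraries *Timp1* (0.65) and *Timp4* (0.28). The cause was not tested.

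With 1 library left out at a time, the lowest and highest log2 fold changes that spanned 0 in *Mtm1* KO against WT were -0.70 to 0.017 for *Timp4*, -0.089 to 0.084 for *Plau* and -1.53 to 0.86 for *Mmp9*. For *Mtm1* KO + TAM against *Mtm1* KO they were -0.40 to 0.11 for *Mmp14*, -0.25 to 0.14 for *Timp1*, -0.044 to 0.14 for *Plau* and -0.14 to 0.013 for *Timp3*. In WT + TAM against WT they were -0.088 to 0.13 for *Mmp2* and -0.34 to 0.10 for *Mmp14*. For the tamoxifen groups they were -0.033 to 0.13 for *Timp2*, -0.16 to 0.22 for *Timp3* and -0.36 to 0.57 for *Mmp3*. For *Mtm1* KO + TAM against WT they were -0.076 to 0.35 for *Timp4* and -0.046 to 0.088 for *Plau*. In the interaction they were -0.35 to 0.36 for *Timp4*, -0.33 to 0.27 for *Mmp14* and -2.22 to 0.33 for *Mmp9*.

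The count of all genes called moved by more than 1.5 times as follows. In *Mtm1* KO against WT (531) it was 1678 with DESeq2, 1452 with the exact test, 824 with limma, 1163 with library size, 1096 with no filter, 987 with 1 fit of 4 groups, 211 with all 16 libraries, 349 with *Mtm1* KO replicate 12 added, 1885 at 0.05 and 182 to 363 with 1 library left out. The 0 genes called in *Mtm1* KO + TAM against *Mtm1* KO became 72 with DESeq2, 72 with the exact test, 12 with no filter, 2 with 1 fit of 4 groups and 0 to 1 with 1 library left out. In WT + TAM against WT (19) it was 214 with DESeq2, 178 with the exact test, 81 with no filter, 39 with 1 fit, 12 with all 16 libraries, 80 at 0.05, 4 with replicates 7 and 8 summed and 2 to 21 with 1 library left out. For the tamoxifen groups (979) it was 1995 with DESeq2, 1826 with the exact test, 1695 with limma, 1874 with library size, 2476 at 0.05, 539 with replicates 7 and 8 summed and 424 to 921 with 1 library left out. For *Mtm1* KO + TAM against WT (1150) it was 2375 with DESeq2, 2091 with the exact test, 1871 with library size, 1792 with no filter, 297 with all 16 libraries, 2993 at 0.05 and 531 to 1246 with 1 library left out. In the interaction (0) it was 12 with DESeq2 and 1 with limma. The cause was not tested. No paired analysis was possible because the libraries are numbered 1 to 16, the groups share no replicate numbers, and the litter of each library is not given, although the study says that littermates were used. The tissue was measured in bulk as RNA only, so protein amounts, enzyme activity and the cells that make each transcript are not known from these data.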
